A study of Mus musculus with 6 samples.

Results

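The genes Ugt1a6a, Ugt1a6b and Ugt1a7c encode UDP-glucuronosyltransferases of the mouse Ugt1a cluster on chromosome 1, and their RNA levels are described here in macrophages of Cd28 KO and WT mice. They are 3 of the 9 Ugt1a genes in the reference annotation and 3 of 14574 genes listed in any library. They were taken by symbol, with the FPKM differences between Cd28 KO and WT in these same libraries already known. Their differences between the genotypes are therefore given as a description, with no test.

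Libraries were made from macrophages grown out of the femoral marrow of Cd28 KO mice (replicates 1 to 3) and of C57BL/6J mice, the wild type (WT, replicates 1 to 3), all aged 6 to 10 weeks. Both groups were kept for 7 days with human M-CSF, a macrophage growth factor, added at 25 ng/ml every 2 days to medium that held 10% serum and, as the labels have it, 50 mM 2-ME, and neither received another treatment. Cd28 is a costimulatory receptor best known from T cells, and no label used here gives the part of the gene that was targeted. Nor do the labels say whether a replicate number stands for a separate animal, so a p-value here speaks of the spread between libraries, which may be technical.

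Expression was deposited as FPKM, a level of fragments scaled to transcript length and library size. Each library listed 12768 to 13327 genes. Cd28 itself stood at 25.7, 24.1 and 26.9 FPKM in the Cd28 KO libraries, against 38.2, 30.1 and 51.1 FPKM in the WT libraries, so it was lower in Cd28 KO but not absent. All 7 macrophage markers were present, with summed levels of 14100 to 16100 FPKM in Cd28 KO and 13300 to 14200 FPKM in WT. Most of this sum was Lyz2, which averaged 11000 FPKM. Cd68 was lower in Cd28 KO within each replicate number, at 2035, 2036 and 1806 FPKM against 2264, 2288 and 1926 FPKM in WT. Adgre1 and Csf1r went either way between replicate numbers. Markers of hepatocytes, the cells in which glucuronidation is best known, summed to at most 0.11 FPKM in Cd28 KO and 0 in WT, and albumin (Alb) was listed in no library. The replicate 3 library of each genotype stood apart from the other libraries and was the only one of its group to list Y-linked genes (2 of 6 libraries). The levels of the 3 genes are therefore also given without replicate 3.

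UDP-glucuronosyltransferases sit in the membrane of the endoplasmic reticulum and join glucuronic acid, taken from UDP-glucuronate, to small fat-soluble molecules such as phenols, steroids, bilirubin and many drugs. The products are more soluble in water and leave the cell through export pumps. The Ugt1a genes are arranged in an unusual way: each has its own promoter and first coding exon, which encodes the part of the enzyme that binds the substrate, and all are spliced to one common set of exons, which encode the part that binds UDP-glucuronate. UGT1A6 enzymes are known for acting on small planar phenols.

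The 3 genes lie on the plus strand of chromosome 1 in GRCm38. Ugt1a7c (Entrez 394432) spans 88095001 to 88220002, Ugt1a6b (Entrez 394435) 88103257 to 88218998 and Ugt1a6a (Entrez 94284) 88134809 to 88220002. In GENCODE, an annotation of the same build, the first coding exon holds 858 coding bases in each of them, and the 735 coding bases that follow, in exons 2 to 5, are the same stretch of genome for all 9 Ugt1a genes. Common sequence thus makes up 46.1% of the coding sequence of each of the 3 genes. The first coding exons of Ugt1a6a and Ugt1a6b differ at 26 of 858 positions (97.0% alike), whereas that of Ugt1a7c is 60.3% identical by alignment to either of them. The 90 coding bases in which Ugt1a6a and Ugt1a6b differ most, coding bases 271 to 360, are shown because reads can be told apart at such positions. Capitals mark the 13 bases that differ between Ugt1a6a and Ugt1a6b, and the same coding bases of Ugt1a7c are given in lower case throughout. They lie at chr1:88138744-88138833 in Ugt1a6a, chr1:88107212-88107301 in Ugt1a6b and chr1:88095391-88095480 in Ugt1a7c, and the start of the common exon 2 at chr1:88215044-88215103 follows.
Ugt1a6a: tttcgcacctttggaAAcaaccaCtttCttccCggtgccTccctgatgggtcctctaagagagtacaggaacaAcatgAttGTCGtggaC
Ugt1a6b: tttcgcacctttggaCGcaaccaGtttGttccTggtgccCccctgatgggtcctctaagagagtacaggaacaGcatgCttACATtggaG
Ugt1a7c: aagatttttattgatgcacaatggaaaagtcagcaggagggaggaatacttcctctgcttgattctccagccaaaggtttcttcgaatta
Exon 2, all 9 genes: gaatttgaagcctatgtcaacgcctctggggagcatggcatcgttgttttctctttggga

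How much sequence tells each gene apart was counted in windows of 50 bases along 1 GENCODE transcript per gene. In Ugt1a7c 59.1% of windows occur in the transcript of no other Ugt1a gene, against 19.3% in Ugt1a6b and 19.4% in Ugt1a6a. The Ugt1a7c transcript used is also the longest, at 3231 bases against 2303 for Ugt1a6b and 2297 for Ugt1a6a, and ends at 88220002. This end, and with it part of the higher unique share, sets Ugt1a7c apart in GENCODE, whereas RefSeq ends Ugt1a6a and several other Ugt1a genes there too. When every GENCODE transcript of the other genes was included, no window of Ugt1a6a was unique (0 of 2248). One GENCODE transcript that carries the symbol Ugt1a7c starts with the leader exon of Ugt1a6b (88103252 to 88103378) and has the whole coding sequence of Ugt1a6a. RSEM, the program named in the submitters' processing notes, divides reads between similar transcripts by estimation, and the transcript set it was given is not stated in the sources used here. How the reads of the common exons were divided between the members was not tested, and the value of each single gene is uncertain to that extent.

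**Figure D1:**
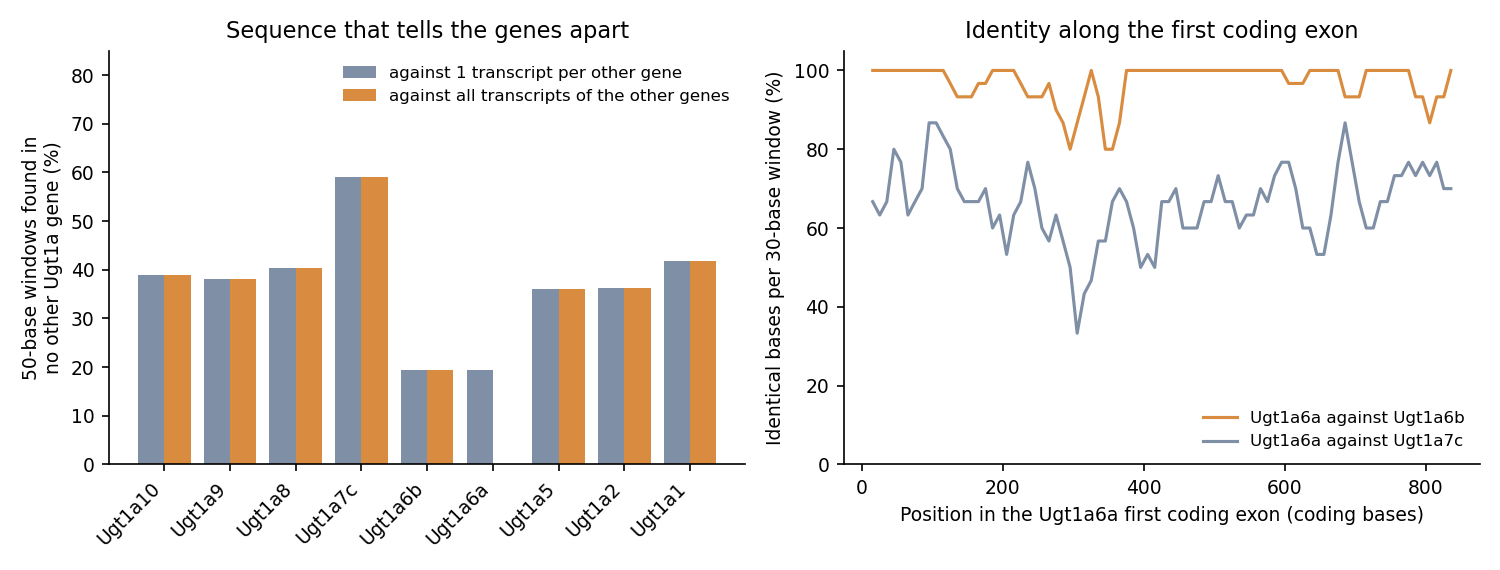
Left, the share of 50-base windows (%) of each Ugt1a gene's transcript found in no other Ugt1a gene, with the genes in their order along the chromosome; grey bars compare with 1 transcript per other gene and orange bars with all GENCODE transcripts of the other genes. Right, identical bases (%) in 30-base windows along the first coding exon of Ugt1a6a, aligned to Ugt1a6b (orange) and Ugt1a7c (grey). Ugt1a7c has the highest share, 59.1%, the orange bar of Ugt1a6a is at 0, and the orange line lies above the grey line along the whole exon.

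Ugt1a7c, named after a group of enzymes that in human and rat are known mostly from tissues outside the liver, was the most abundant of the 3 in every library. It stood at 82.3, 81.8 and 83.0 FPKM in the Cd28 KO libraries, against 47.6, 45.4 and 63.0 FPKM in the WT libraries. The Cd28 KO values lay close together and above all WT values, of which replicate 3 was the highest. It averaged 82.4 ± 0.606 FPKM over the 3 Cd28 KO libraries, against 52.0 ± 9.62 FPKM over the 3 WT libraries (mean ± SD), a ratio of 1.58. The difference in log2(FPKM + 1) was 0.67 ± 0.14 (SE). The added 1 FPKM makes such differences too small for genes of low level. In replicates 1 and 2 alone it averaged 82.0 FPKM in Cd28 KO and 46.5 FPKM in WT. In each Cd28 KO library 92.5% to 92.7% of the listed genes were below it, and in the WT libraries 86.2% to 90.6%.

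Ugt1a6b had the larger ratio between the genotypes, and Ugt1a7c the larger difference in FPKM. It stood at 19.2, 20.9 and 35.5 FPKM in the Cd28 KO libraries, against 0, 3.23 and 1.85 FPKM in the WT libraries, where WT replicate 1 did not list it. The groups did not overlap, and Cd28 KO replicate 3 was well above the other 5 libraries. Its mean was 25.2 ± 8.92 FPKM over the Cd28 KO libraries, against 1.69 ± 1.62 FPKM over the WT libraries, a ratio of 14.9, and the log2(FPKM + 1) difference was 3.46 ± 0.52 (SE). In replicates 1 and 2 alone it averaged 20.1 FPKM in Cd28 KO and 1.61 FPKM in WT. The log2 difference was 4.81 with a pseudocount of 0.1 FPKM, as the WT level is close to 0.

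Ugt1a6a, the near-identical copy of Ugt1a6b, was the lowest of the 3 members on average. It stood at 0.48, 1.29 and 2.42 FPKM in the Cd28 KO libraries, against 0.18, 0.19 and 0.43 FPKM in the WT libraries. The lowest Cd28 KO value, in replicate 1, was just above the highest WT value, in replicate 3. At the depths estimated below and the GENCODE length of 2297 bases, 1 fragment on Ugt1a6a would be 0.045 to 0.048 FPKM. The gap between these values is thus about 1 fragment wide at that length. With a longer transcript 1 fragment would be a lower FPKM, and the length RSEM used is not known. Ugt1a6a averaged 1.40 ± 0.974 FPKM for Cd28 KO, against 0.267 ± 0.142 FPKM for WT, a ratio of 5.24. Replicates 1 and 2 alone gave 0.885 FPKM for Cd28 KO, against 0.185 FPKM for WT. Its mean over the 6 libraries, 0.832 FPKM, was below the minimum of 1 FPKM set for the fit across all genes, so 2 of the 3 members were in that fit.

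Each of the 3 members was thus higher in all Cd28 KO libraries than in the highest WT library. So were 3.84% of the 10172 genes in the fit across all genes, which does not include Ugt1a6a. Nothing is read from this count, since the members were chosen on this comparison.

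**Figure D2:**
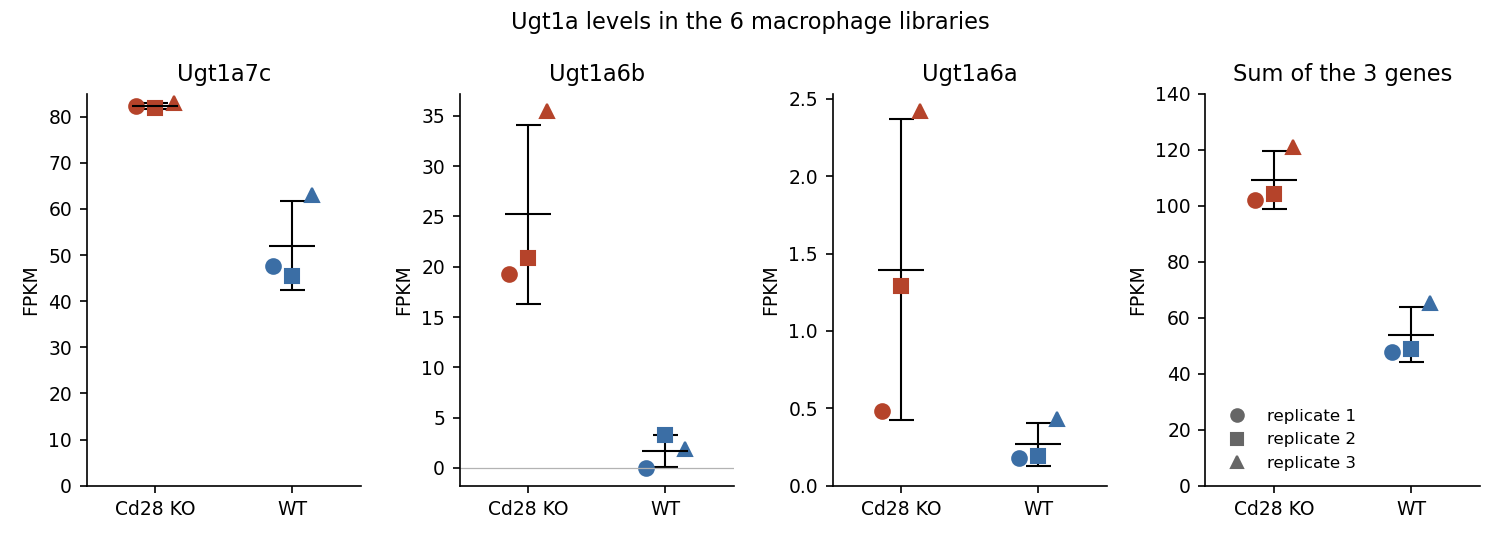
FPKM of Ugt1a7c, Ugt1a6b, Ugt1a6a and their sum in the Cd28 KO libraries (red) and the WT libraries (blue); each symbol is 1 library, its shape gives the replicate number, and the bars are the mean ± SD of 3 libraries on separate linear axes. In every panel the Cd28 KO symbols lie above the WT symbols, and Ugt1a6b of WT replicate 1 is at 0.

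Summed over the 3 members, the level was 102, 104 and 121 FPKM in the Cd28 KO libraries, against 47.8, 48.8 and 65.3 FPKM in the WT libraries. Replicate 3 was the highest of its group in both genotypes, and the groups stood further apart than either was wide. The average sum was 109 ± 10.4 FPKM for Cd28 KO, against 54.0 ± 9.84 FPKM for WT (SD over 3 libraries), a ratio of 2.02 and a difference of 55.0 FPKM. Between libraries of the same replicate number the difference was 54.2, 55.2 and 55.6 FPKM for replicates 1, 2 and 3. It was therefore nearly the same in the pair that stood apart as in the others, although the members that made it up were not. Ugt1a7c contributed 34.7, 36.4 and 20.0 FPKM of it in replicates 1, 2 and 3, and Ugt1a6b 19.2, 17.7 and 33.6 FPKM. Averaged over the replicates, Ugt1a7c carried 55.2% of the summed difference, Ugt1a6b 42.7% and Ugt1a6a 2.05%.

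The make-up of the sum, as estimated by RSEM, differed between the genotypes. The shares rest on how reads were divided between the members, which was not tested. Ugt1a6b made up 18.9%, 20.1% and 29.3% of it in the Cd28 KO libraries, against 0%, 6.62% and 2.83% in the WT libraries. The groups did not overlap, and the average share was 22.8 ± 5.72% for Cd28 KO, against 3.15 ± 3.32% for WT, a difference of 19.6 percentage points. Ugt1a7c accounted for 80.7%, 78.7% and 68.7% in the Cd28 KO libraries, against 99.6%, 93.0% and 96.5% in the WT libraries. Its share was thus lower in Cd28 KO while its level was higher. Ugt1a6a held 0.47% to 2.00% in Cd28 KO and 0.377% to 0.658% in WT, and these ranges overlapped. FPKM is divided by transcript length. As shares of fragments, using the GENCODE lengths, Ugt1a6b made up 17.5 ± 4.78% in Cd28 KO and 2.29 ± 2.42% in WT. In replicates 1 and 2 alone its share of summed FPKM averaged 19.5% in Cd28 KO and 3.31% in WT.

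**Figure D3:**
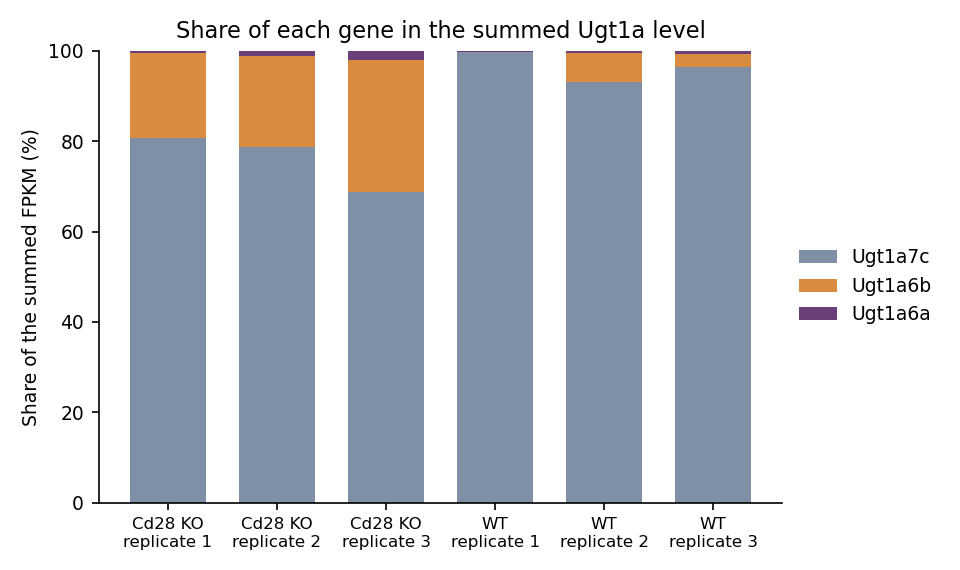
Share (%) of Ugt1a7c (grey), Ugt1a6b (orange) and Ugt1a6a (purple) in the summed FPKM of the 3 genes, 1 stacked bar per library. The orange segment covers 18.9% to 29.3% in the Cd28 KO libraries and 0% to 6.62% in the WT libraries.

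In bulk RNA a higher level of Ugt1a RNA per cell and a larger share of cells that express it cannot be told apart. Among markers of other cell types, those of mast cells and basophils (Kit, Cpa3, Mcpt8, Fcer1a) summed to 1.68 to 2.09 FPKM in Cd28 KO and 3.04 to 4.10 FPKM in WT, mostly from the receptor gene Kit. Mcpt8 was at 0 in all Cd28 KO libraries and in WT replicate 3, and Fcer1a was highest in Cd28 KO replicate 1, at 0.21 FPKM. Those of dendritic cells (Flt3, Zbtb46, Xcr1) summed to 0.48 to 0.81 FPKM in Cd28 KO and 0.43 to 0.47 FPKM in WT, and Zbtb46 was at 0 in WT replicate 2. Their part in the Ugt1a levels was not tested. Markers of endothelial cells, mainly Vwf, summed to 6.45 to 9.04 FPKM in Cd28 KO and 9.02 to 10.4 FPKM in WT. Most markers of other cell types were below the minimum for the fit across all genes, and limma called none of the rest, with or without the replicate number as a block.

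The other 6 Ugt1a genes were barely detected or were not listed. Ugt1a1, which conjugates bilirubin in the liver, stood at 0.59, 0.71 and 0.21 FPKM in the Cd28 KO libraries, against 0.10, 0.10 and 0 FPKM in the WT libraries. Ugt1a9, whose human counterpart acts on bulky phenols, stood at 0.21, 0.35 and 0.33 FPKM in the Cd28 KO libraries and was not listed in any WT library. For both, the groups did not overlap and Cd28 KO was the higher one, and both share exons 2 to 5 with the members. At the depths estimated below and the GENCODE lengths, 1 fragment would be 0.046 to 0.049 FPKM on Ugt1a1. On Ugt1a9 it would be 0.047 to 0.05 FPKM. The gaps between the groups thus rest on few fragments at those lengths. No share of genes without overlap was taken below the minimum for the fit, so nothing is read from these gaps. Ugt1a2 was listed in 1 library, WT replicate 1, at 0.10 FPKM, and Ugt1a5, Ugt1a8 and Ugt1a10 in none. These 6 genes held 0.54 to 1.06 FPKM together in Cd28 KO and 0 to 0.20 FPKM in WT, so that the members carried 99.0% to 99.6% of the listed Ugt1a level in Cd28 KO and 99.6% to 100% in WT. All were below the minimum for the fit. Of 13 other UDP-glycosyltransferase genes, of the families Ugt2a, Ugt2b, Ugt3a and Ugt8a, none was listed in any library.

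Promoter sequence from RefSeq (build GRCm38) was used for Ugt1a7c and Ugt1a6a, and the promoter of Ugt1a6b was not analysed here. The 250 bases before each start site are shown, since these genes lie in one cluster and were both higher in Cd28 KO. Short motifs were searched on both strands in windows from 250 bases before to 50 after the start: GCGTG, the core bound by the aryl hydrocarbon receptor, TGACNNNGC, the core of the antioxidant response element bound by Nrf2, and GAGGAA, a core bound by the macrophage factor PU.1. Capitals mark matches, which were matches of the last motif on the minus strand, 1 in each promoter.
Ugt1a7c, chr1:88094751-88095000: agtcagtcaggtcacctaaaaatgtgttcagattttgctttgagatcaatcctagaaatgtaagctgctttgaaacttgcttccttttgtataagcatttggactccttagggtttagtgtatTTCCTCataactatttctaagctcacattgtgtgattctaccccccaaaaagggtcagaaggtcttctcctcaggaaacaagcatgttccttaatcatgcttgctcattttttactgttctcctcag
Ugt1a6a, chr1:88134559-88134808: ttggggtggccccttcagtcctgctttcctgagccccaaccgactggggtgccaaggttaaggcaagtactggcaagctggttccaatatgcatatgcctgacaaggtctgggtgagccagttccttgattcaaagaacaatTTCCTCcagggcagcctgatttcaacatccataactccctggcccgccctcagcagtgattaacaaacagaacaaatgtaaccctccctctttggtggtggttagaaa
Of all 32851 promoter windows in the table, 28.3% held GAGGAA, 32.4% GCGTG and 12.4% TGACNNNGC. The letters GCGTG and TGACNNNGC were in neither window. GAGGAA was also in the windows of Ugt1a1, Ugt1a5 and Ugt1a8, of which Ugt1a5 and Ugt1a8 were listed in no library.

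Genes around the cluster were compared next, since neighbours on the chromosome were not used to choose the members. Within 1 Mb of the members 15 genes outside the cluster were listed and 9 passed the filter. They were tested with limma, which fits a linear model per gene and shares information on the spread across genes, at an adjusted p below 0.05. Without a block it called none of the 9, and of all tested genes 0.0197%, all of them higher in Cd28 KO (0% lower). With the replicate number as a block it again called none of the 9, and of all tested genes 0.177% (0.138% higher and 0.0393% lower). At an unadjusted p below 0.05, 0 of the 9 passed without the block, against 2.49% of all tested genes, and 1 with it, against 7.89%. Their median log2 difference was -0.01, close to that of all tested genes (0.00). Among the neighbours below the filter, Glrp1, 280 kb after the members, was at 0 in all Cd28 KO libraries. It stood at 0.17, 0.38 and 0.85 FPKM in the WT libraries and was not tested. Of all tested genes 2.87% were lower in Cd28 KO without overlap, and no such share was taken over genes below the filter. Nothing is read from Glrp1, which was named for its values. The groups of the other neighbours below the filter overlapped. Hjurp, a chaperone of centromeric histone that lies 38.9 kb after the cluster, stood at 8.25, 9.23 and 6.55 FPKM in the Cd28 KO libraries, against 8.13, 8.10 and 7.78 FPKM in the WT libraries. Usp40, a deubiquitinase gene at -86.4 kb from the members, averaged 1.96 ± 1.29 FPKM over the Cd28 KO libraries, against 2.42 ± 1.31 FPKM over the WT libraries (SD). Dgkd, a diacylglycerol kinase, stood at 53.1 ± 6.36 FPKM in Cd28 KO and 48.7 ± 1.92 FPKM in WT, and Atg16l1, an autophagy gene, at 10.8 ± 2.28 FPKM in Cd28 KO and 10.6 ± 2.42 FPKM in WT. Inpp5d, the lipid phosphatase SHIP1, averaged 62.6 ± 8.97 FPKM in Cd28 KO and 67.1 ± 6.92 FPKM in WT, and Arl4c, a small GTPase, 101 ± 46.3 FPKM in Cd28 KO and 102 ± 64.1 FPKM in WT.

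Sh3bp4, an adaptor of endocytosis that lies 850 kb after the cluster, had the most negative difference of the tested neighbours. It stood at 0.61, 0.70 and 1.78 FPKM in the Cd28 KO libraries, against 1.48, 1.71 and 4.04 FPKM in the WT libraries. The groups overlapped, since replicate 3 was high in both, but within each replicate number the Cd28 KO library was the lower one. Its difference was -0.72 ± 0.33 (log2, SE), and the adjusted p from limma was 0.9995, or 0.149 with the block.

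**Figure D4:**
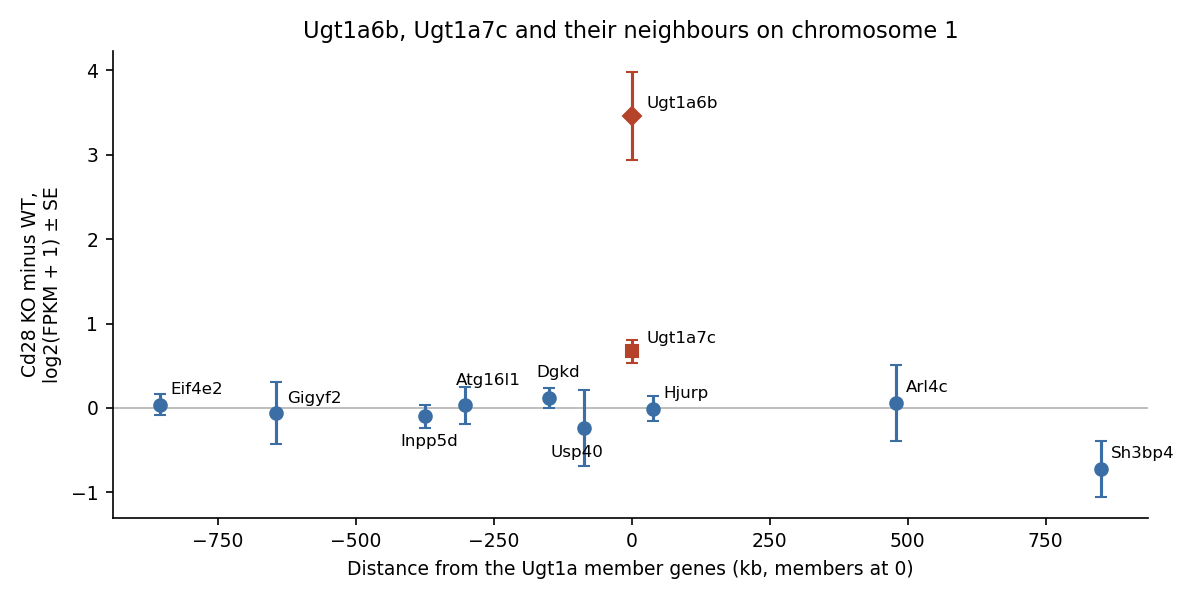
Difference between Cd28 KO and WT in log2(FPKM + 1), with its SE, for Ugt1a6b and Ugt1a7c (red) and the 9 tested genes within 1 Mb of the members (blue), against the distance in kb. The red symbols lie at 3.46 and 0.67, and the blue ones between -0.72 (Sh3bp4) and 0.12 (Dgkd).

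Genes that work with the Ugt1a enzymes, or that respond to the same regulators, were examined in 8 lists with 90 genes, of which 52 passed the filter. Limma called 0 of the 52 without a block and 0 with it. At an unadjusted p below 0.05 it listed 1 without a block, where 2.49% of all tested genes were below it, and 5 with the block, where 7.89% were. The median log2 difference over the 52 was -0.02, with values from -0.35 to 0.33, against 0.00 over all tested genes.

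The supply of UDP-glucuronate showed no called gene among 8. Ugdh, which makes UDP-glucuronate from UDP-glucose, averaged 22.4 ± 1.32 FPKM over the Cd28 KO libraries, against 23.3 ± 3.17 FPKM over the WT libraries (SD). Ugp2, which makes UDP-glucose, stood at 27.6 ± 2.84 FPKM in Cd28 KO and 29.3 ± 1.13 FPKM in WT, and Pgm2, a phosphoglucomutase, at 15.6 ± 0.499 FPKM in Cd28 KO and 16.6 ± 0.875 FPKM in WT. Slc35d1, which carries UDP-glucuronate into the endoplasmic reticulum, had the largest difference of the list, a log2 of -0.18 ± 0.19 (SE; limma adjusted p = 0.9995). Gusb, the lysosomal enzyme that removes glucuronic acid, was the most abundant of them, at 260 ± 20.4 FPKM in Cd28 KO and 273 ± 27.7 FPKM in WT.

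The aryl hydrocarbon receptor is a sensor of planar aromatic compounds that induces UGT1A6 in rodents. The receptor gene Ahr was low, at 0.66, 0.72 and 1.66 FPKM in the Cd28 KO libraries, against 0.49, 0.50 and 1.68 FPKM in the WT libraries, with the replicate 3 library highest in both groups. Its classic target Cyp1a1 was listed in 1 library, WT replicate 3, at 0.08 FPKM, and Cyp1b1 did not exceed 0.12 FPKM. Of the 11 genes of this list 5 were tested and none was called. The receptor's partner Arnt stood at 13.0 ± 0.314 FPKM in Cd28 KO and 13.7 ± 1.95 FPKM in WT. The repressor Ahrr stood at 2.86 ± 0.304 FPKM in Cd28 KO and 2.73 ± 1.02 FPKM in WT.

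Nrf2, encoded by Nfe2l2, switches on antioxidant and conjugation genes. Of 16 genes of this list, all tested, 7 had a positive and 9 a negative difference, the median was -0.02 and none was called. Nfe2l2 itself stood at 175 ± 12.1 FPKM in Cd28 KO and 167 ± 16.1 FPKM in WT, and Nqo1, a quinone reductase that both regulators induce, at 2.36 ± 0.170 FPKM in Cd28 KO and 2.57 ± 0.964 FPKM in WT. The genes of smallest p were Me1, malic enzyme, with a log2 difference of 0.21 ± 0.16 (SE), Srxn1, sulfiredoxin, with -0.24 ± 0.19, and Gclm, a subunit of glutathione synthesis, with 0.10 ± 0.14. Of the other regulators of such genes, the nuclear receptor Rxra was the 1 tested, at 6.18 ± 0.818 FPKM in Cd28 KO and 7.05 ± 1.70 FPKM in WT, while the xenobiotic receptor gene Nr1i2 did not exceed 0.04 FPKM in any library.

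Other conjugation enzymes were expressed at a wide range of levels, with 16 of 23 tested and none called. Mgst2, a microsomal glutathione transferase, was the 1 tested gene of the lists whose groups did not overlap. It stood at 0.90, 0.76 and 0.76 FPKM in the Cd28 KO libraries, against 1.51, 1.12 and 1.27 FPKM in the WT libraries, and 2.87% of all tested genes were lower in Cd28 KO without overlap. Its difference was -0.35 ± 0.15 (log2, SE), and the adjusted p from limma was 0.9995, or 0.562 with the block. Gstm1, a cytosolic glutathione transferase, averaged 138 ± 10.9 FPKM in Cd28 KO and 159 ± 13.7 FPKM in WT, and Gstk1, a mitochondrial one, 11.3 ± 0.885 FPKM in Cd28 KO and 9.05 ± 2.07 FPKM in WT. Gstm1 belongs to a family of similar copies, so its own value is uncertain. Among 8 efflux transporters of conjugates 7 were tested and none was called. Abcc1 stood at 21.7 ± 2.38 FPKM in Cd28 KO and 23.5 ± 1.38 FPKM in WT, Abcg2 at 5.65 ± 0.674 FPKM in Cd28 KO and 5.93 ± 0.695 FPKM in WT, and Abcb1a at 1.06 ± 0.370 FPKM in Cd28 KO and 1.33 ± 0.838 FPKM in WT. A p that misses the threshold does not show that these levels were equal, and with 3 libraries a group small differences can be missed.

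**Figure D5:**
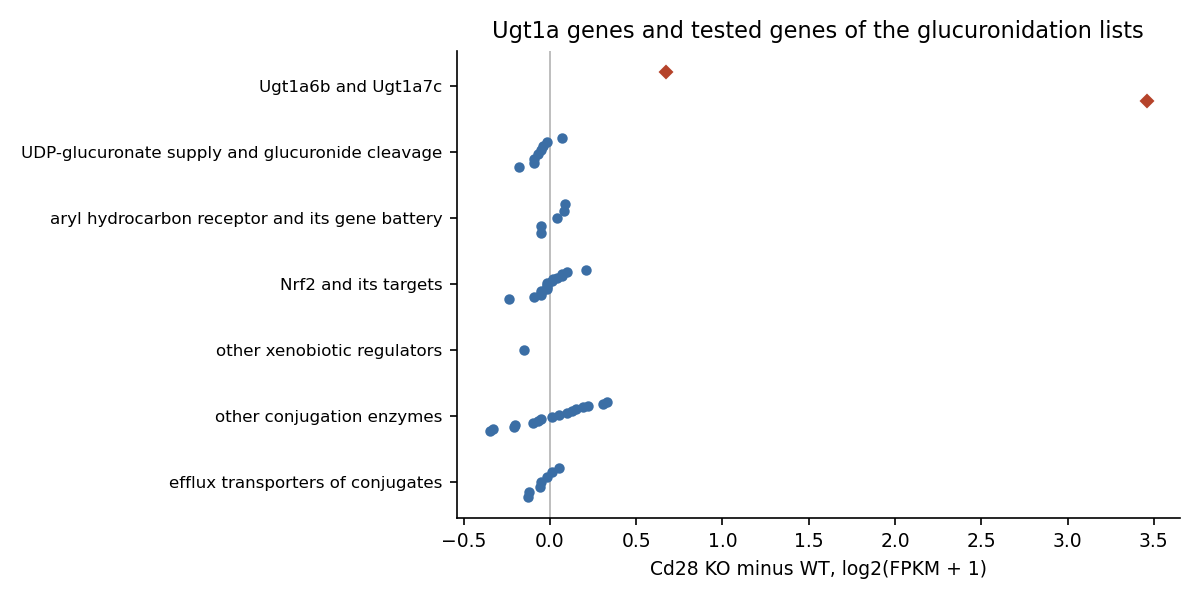
Difference between Cd28 KO and WT in log2(FPKM + 1), 1 symbol per tested gene, for Ugt1a6b and Ugt1a7c (red) and for the 6 lists with tested genes (blue). The blue symbols lie between -0.35 and 0.33, and the red ones at 0.67 and 3.46.

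The genes whose pattern over the 6 libraries was most like that of the summed Ugt1a level were found by Pearson correlation of log2(FPKM + 1), as a description. The 5 highest were Ddx59 at 0.991, B3gnt7 at 0.984, Auh at 0.982, Sdhaf2 at 0.980 and Steap3 at 0.978, and the 2 lowest were Ctps at -0.988 and Ramp1 at -0.981. Among 10170 genes 24 exceeded 0.95. The 6 libraries fall into 2 genotypes, so any gene with a similar gap between them scores high. B3gnt7, a glycosyltransferase gene, stood at 2.48, 2.80 and 2.81 FPKM in the Cd28 KO libraries, against 0.33, 0.12 and 0.67 FPKM in the WT libraries. Ddx59, an RNA helicase gene, stood at 7.86, 7.46 and 8.21 FPKM in the Cd28 KO libraries, against 4.15, 4.57 and 5.24 FPKM in the WT libraries. Ramp1, a partner of a neuropeptide receptor, ran the other way, at 2.98, 2.36 and 2.43 FPKM in the Cd28 KO libraries, against 5.35, 5.84 and 4.33 FPKM in the WT libraries. For Ugt1a6b alone the 3 highest were Tsr3 at 0.988, Rab4a at 0.980 and Pld4 at 0.974. Of these 10 genes 4 (Ddx59, B3gnt7, Steap3 and Ramp1) lie on chromosome 1, which holds 5.68% of the tested genes. The 10 were picked for a pattern like that of the members, which were themselves chosen on this comparison. Nothing is read from this share, and a link to position was not tested. B3gnt7 lies 1790 kb before the members and Ramp1 2960 kb after them. Steap3 starts at 120226414 and Ddx59 at 136415271, further along the chromosome, while Cd28 lies 27.3 Mb before the members.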

How the data were processed

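RNA profiles of 6 macrophage libraries were analysed, 3 Cd28 KO and 3 WT, grouped by title. The authors deposited FPKM per Entrez gene. Per the submitters' processing notes, Bowtie, RSEM and build GRCm38 were used, with no version given in these sources. Genes that a file does not list entered as 0. RefSeq for GRCm38 gave symbols for 14551 of 14574 genes.

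FPKM does not carry read numbers, so no count test was run. In low values of 1561 genes with 1 transcript, a search over depths found a best fit for each library, with 70.3% to 72.1% of values within 0.15 of a whole fragment (30% by chance). At that fit and the GENCODE length, 1 fragment on Ugt1a1 would be 0.046 to 0.049 FPKM. The search took the best of many depths, and RSEM values need not be whole.

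Tests used limma 3.58.1 in R 4.3.3 (two-sided, empirical Bayes with trend, Benjamini-Hochberg over 10172 genes whose mean reached 1 FPKM) on log2(FPKM + 1), without a block. Deviations from group means correlated at 0.752, 0.505 and 0.783 between libraries of replicate numbers 1, 2 and 3, which was read as pairing, from these data and from no label. Across numbers 1 and 2 the correlations were 0.663 and 0.535, so the numbers set replicate 3 apart but do not tell 1 from 2. The genes most like the members are given with no test in either fit. Sequences came from GENCODE M21 transcripts and RefSeq promoters, aligned with edlib 1.3.9.post1. Python 3.11.15, pandas 2.3.3, NumPy 2.4.6 and Matplotlib 3.10.9 were used.

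The members and gene lists were chosen with earlier results of these data known. Named genes are the members, up to 3 tested genes of smallest p per list, up to 4 nearest tested neighbours on either side, and the genes most like the members. One gene this rule names is not reported here. No list gene or neighbour was called in either fit. Ugdh, Gusb, Ahr, Cyp1a1, Cyp1b1, Ugt1a1, Ugt1a2, Ugt1a9, Nfe2l2, Nqo1 and Nr1i2 were named for their role after their values were seen. Glrp1 was named for its values.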

Additional observations from a re-analysis of the deposited data

How the results depend on the processing

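The summed Ugt1a level stayed higher in Cd28 KO throughout, by 49.0 to 60.7 FPKM when single libraries were left out, 54.7 FPKM in replicates 1 and 2 only and 51.3 FPKM on the TPM scale, against 55.0 FPKM. The difference in the Ugt1a6b share was 16.3 to 21.6 percentage points when single libraries were left out, 16.2 in replicates 1 and 2 only and 15.2 as shares of fragments, against 19.6. The log2 difference of Ugt1a6b was 2.86 to 3.90 and that of Ugt1a7c 0.58 to 0.81 when single libraries were left out. Limma called 2 genes of all tested, 5 with no filter, 18 with the replicate block and 71 in replicates 1 and 2 only, and 2 in each leave-one-out fit. The block changed no call among neighbours or pathway lists, where 0 were called in every planned setting. In replicates 1 and 2 with the block, added after seeing the data and with 1 residual degree of freedom per gene, 553 genes were called, among them 1 neighbour (Sh3bp4, limma adjusted p = 0.00249) and 1 list gene (Gstm1, 0.0134).

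None of the named genes that changed sign was called by limma in any of these settings. On the TPM scale the log2 difference was -0.02 for Atg16l1. Leaving out single libraries moved Atg16l1 to between -0.15 and 0.20, Arl4c to -0.29 to 0.54, Hjurp to -0.11 to 0.11, Ahrr to -0.04 to 0.29, Arnt to -0.13 to 0.05, Rxra to -0.24 to 0.02, Abcb1a to -0.30 to 0.14, Abcg2 to -0.14 to 0.01 and Usp40 to -0.61 to 0.20. In replicates 1 and 2 only, with or without the block, they were 0.07 for Arnt, 0.01 for Abcb1a, 0.06 for Abcg2, 0.07 for Inpp5d and 0.09 for Hjurp. The causes were not tested. FPKM carries no depth and the depths used here are only estimates, so no counting error is given for the low Ugt1a genes.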
